A study of Mus musculus with 6 samples.

Results

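Polycomb repressive complex 2 (PRC2) is the enzyme complex that methylates lysine 27 of histone H3 (H3K27me3). Its genes were followed here in cultured mouse cerebellar granule neurons (CGNs) given the EZH2 inhibitor GSK-126 or the vehicle DMSO. The 10 genes taken, out of 55341 in the count tables, are the catalytic subunits Ezh1 and Ezh2, the core subunits Eed, Suz12 and Rbbp7, and the accessory subunits Jarid2, Aebp2, Phf1, Mtf2 and Phf19. They were chosen by name and role, and all 10 passed the filter on low counts.

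Both groups held 3 libraries each of poly(A) RNA, numbered as replicates 1 to 3, and differed by the labels in the agent alone. The labels give neither dose nor day, and name cerebellum as the source while the titles name CGNs. The study added the inhibitor once, at an earlier or a later day in culture. The labels do not say which applies to these libraries. By the study's methods, the cells came from CD1-IGS mice about a week after birth, each replicate from pooled litters. A density gradient enriched granule neuron precursors, and all cultures received cytosine arabinoside, which blocks division of remaining dividing cells. No transgene or deletion is named for these cultures. GSK-126 is a small molecule that competes with the methyl donor of EZH2 and prefers EZH2 over EZH1. The RNA values report transcript levels, not the amount or activity of the protein.

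EZH2 or its paralog EZH1 carries the methyltransferase domain, EED binds the mark once it is made, SUZ12 is the scaffold, and RBBP7 or its paralog RBBP4 binds histones. The complex comes as PRC2.1, with PHF1, MTF2 or PHF19, or as PRC2.2, with JARID2 and AEBP2. Dividing progenitors are known for high Ezh2, which E2F factors activate in the cell cycle, whereas Ezh1 is known to persist in cells that no longer divide. The comparison asks how the 2 paralogs stand in postmitotic neurons, and whether the transcripts of the complex move when its enzyme is inhibited.

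The libraries held from 8058760 to 12047837 counts over genes, of which the 10 genes took from 0.0554% to 0.0768%. Granule neuron markers were present, with a summed level of the 9 listed of 4860 to 6570 CPM (counts scaled to a fixed library size) with DMSO and 3500 to 5460 with GSK-126. Other cells were present too. The sums ran from 2320 to 7090 CPM for 7 astrocyte markers with DMSO (2430 to 7310 with GSK-126), from 6680 to 8740 for 5 fibroblast markers (8780 to 9720) and from 641 to 903 for 21 proliferation markers (698 to 908). Atoh1, which defines the dividing precursor, had 0 counts in 4 of 6 libraries and at most 6. It is 1 of 7 granule neuron precursor markers listed, of which 5 passed the filter on low counts. The sum of the 7 ran from 351 to 448 CPM with DMSO and from 422 to 501 with GSK-126. A level given here is therefore that of the culture and cannot be assigned to the neurons, and in such bulk RNA fewer cells of a type and less RNA per cell cannot be told apart.

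The promoters of the paralogs are printed because Ezh1 and Ezh2 are compared throughout, and they differ in the E2F-type octamer. Each sequence runs 5′ to 3′ from 250 bases before to 50 bases after the RefSeq start on GRCm38.p6, at chr11:101226414-101226713 (minus strand) for Ezh1 and at chr6:47594981-47595280 (minus strand) for Ezh2. Capitals mark a match to TTTCCCGC, TTTCGCGC, TTTGGCGC or TTTGCCGC, searched on both strands.
Ezh1: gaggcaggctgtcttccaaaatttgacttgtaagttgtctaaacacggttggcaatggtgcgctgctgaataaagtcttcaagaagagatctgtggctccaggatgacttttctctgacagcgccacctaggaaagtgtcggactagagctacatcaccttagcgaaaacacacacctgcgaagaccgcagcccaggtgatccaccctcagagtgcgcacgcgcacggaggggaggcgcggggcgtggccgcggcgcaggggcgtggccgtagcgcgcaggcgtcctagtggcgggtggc
Ezh2: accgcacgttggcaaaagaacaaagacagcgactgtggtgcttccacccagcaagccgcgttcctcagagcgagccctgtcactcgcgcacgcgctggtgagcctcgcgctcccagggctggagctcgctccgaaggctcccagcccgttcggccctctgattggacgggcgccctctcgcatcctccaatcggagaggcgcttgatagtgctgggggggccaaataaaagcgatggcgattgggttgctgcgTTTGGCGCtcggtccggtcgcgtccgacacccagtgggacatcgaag

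The Ezh2 window held TTTGGCGC from base 4 after the start, and the Ezh1 window held 0 matches. Matches were found for 3 of the 10 genes, in 3 of their 14 windows. The others were TTTCCCGC in Suz12, 219 bases before the start, and in Phf19, where it lies on the opposite strand as GCGGGAAA, 208 bases before the start. Of all 32817 promoter windows, whatever their base content, 742 (2.26%) held a match. Each octamer itself holds a CG pair. The Ezh1 window has 23 CG pairs, the Ezh2 window 31, that of Suz12 41 and that of Phf19 38, against a median of 7 over all windows. The 2.26% is thus not a base rate matched to these genes. These letters describe the windows only.

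Levels of different genes were set side by side as CPM per kilobase of exon (the union of annotated exons). With DMSO the order began with the histone binder Rbbp7 at 47.7 ± 2.02 CPM per kb, the PRC2.2 subunit Jarid2 at 22.3 ± 5.0 and the scaffold Suz12 at 16.2 ± 1.24 (SD, n = 3 for all levels here). It went on with Mtf2 (10.6 ± 0.748), Eed (8.91 ± 1.38) and Aebp2 (8.76 ± 1.26). The enzymes came next, Ezh1 at 4.92 ± 0.408 and Ezh2 at 4.83 ± 0.827 CPM per kb. Phf1 (3.38 ± 0.795) and Phf19 (0.995 ± 0.191) were at the bottom. Per kb the histone binder thus stood far above either enzyme gene. Mtf2 and Eed, Eed and Aebp2, and Ezh1 and Ezh2 did not differ beyond their spread over the DMSO libraries, and every other neighbouring pair kept its order in 3 of 3. With the length of the longest coding transcript in place of the union, 4 genes traded places, Mtf2 with Eed and Ezh1 with Ezh2.

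**Figure D1:**
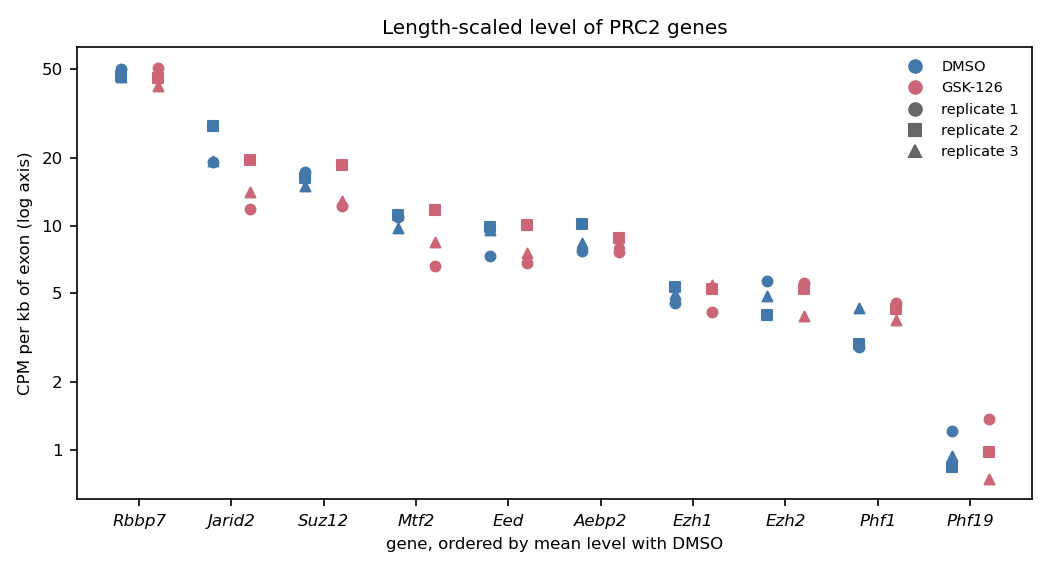
Level of each PRC2 gene as CPM per kilobase of union exon length (log axis), by gene in the order of the DMSO mean. Each point is 1 library, blue for DMSO and red for GSK-126, with the marker shape giving the replicate number. Rbbp7 lies highest, at 42.3 to 50.9, Phf19 lowest, at 0.744 to 1.37, and the points of Ezh1 and Ezh2 overlap.

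RBBP proteins serve other complexes as well, so the Rbbp7 level is not that of PRC2. Its paralog Rbbp4 had 21.4 ± 0.870 CPM per kb with DMSO (SD, n = 3), although per kb of coding sequence Rbbp4 was the higher, at 147 against 109. The enzymes that remove the mark were above those that write it: the demethylase gene Kdm6b had 18.8 ± 0.817 and Kdm6a 8.89 ± 1.00 CPM per kb (SD, n = 3). For both, every DMSO library lay above every Ezh1 and Ezh2 value. With the longest coding transcripts Kdm6b (19.6) stayed above Ezh2 (11.6 ± 1.98), but Kdm6a, at 12.6 CPM per kb, lay within its spread.

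Ezh1 and Ezh2 had nearly the same summed level in every library. The sum of both was 10.1, 9.31 and 9.81 CPM per kb in DMSO replicates 1, 2 and 3, and 9.72, 10.4 and 9.39 with GSK-126. Their shares within that sum were far less even. The Ezh1 to Ezh2 ratio per base was 0.796 (95% counting interval 0.678 to 0.935) in DMSO replicate 1, 1.33 (1.11 to 1.59) in replicate 2 and 1.02 (0.866 to 1.21) in replicate 3. With GSK-126 it was 0.740 (0.643 to 0.851), 0.997 (0.848 to 1.17) and 1.38 (1.17 to 1.64). Replicate 1 was lowest in both groups, with Ezh2 above Ezh1. The intervals of DMSO replicates 1 and 2 do not overlap, so these libraries differ by more than counting error. The intervals, exact binomial ones on the Ezh1 share of both counts, cover counting error only.

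The mean log2 ratio was 0.04 ± 0.370 (SD, n = 3) in the DMSO libraries and 0.01 ± 0.451 (SD, n = 3) under GSK-126. The difference of -0.03 was smaller than the spread between replicates (two-sided exact permutation test, p = 0.900, where 3 against 3 allows no less than 0.10). Within pairs the log2 ratio moved by -0.11, -0.42 and 0.44, in both directions (exact sign-flip test, p = 1.00, smallest possible 0.25). Which paralog is higher depends on the length used. With the longest coding transcripts, of 4207 bases for Ezh1 and 2787 for Ezh2, the DMSO mean ratio was 0.758 and Ezh2 was higher in 3 of 3 DMSO libraries. With the coding sequences, of 2250 and 2238 bases, it was 1.14. On raw counts, 291, 317 and 313 reads fell to Ezh1 and 328, 214 and 275 to Ezh2 with DMSO. No order of the paralogs held under all 3 lengths.

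**Figure D2:**
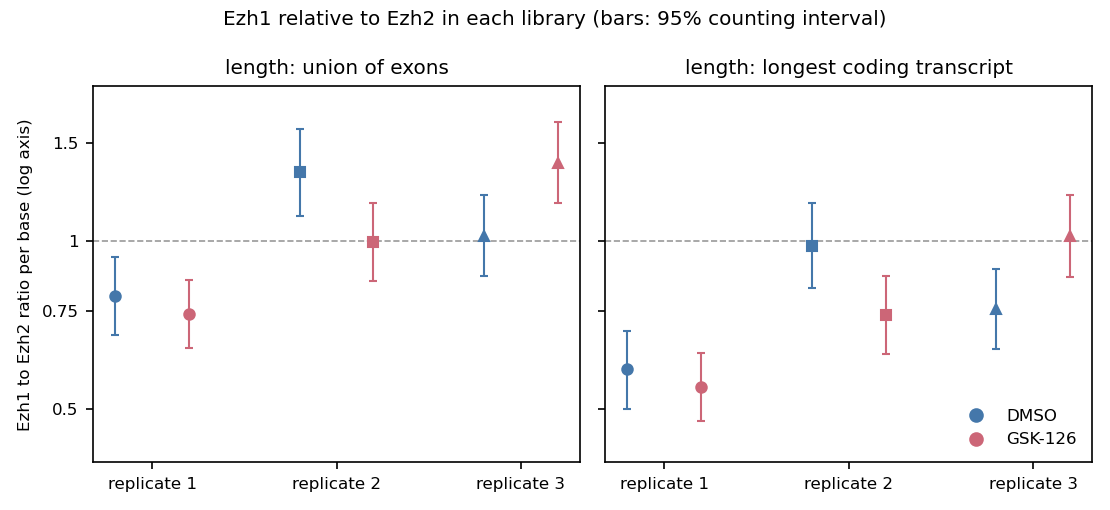
Ratio of Ezh1 to Ezh2 counts per base (log axis) in each library, paired by replicate number, with union exon lengths at left and longest coding transcript lengths at right. Points are single libraries, blue for DMSO and red for GSK-126, and bars are 95% counting intervals. On the left the ratio runs from 0.740 to 1.38, and replicate 1 is lowest in both groups.

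Markers of dividing cells moved with Ezh2 among the DMSO replicates. Ezh2 was 37.7, 26.7 and 32.4 CPM in DMSO replicates 1, 2 and 3, where the summed proliferation markers were 903, 641 and 797 CPM. It thus equalled 4.18%, 4.16% and 4.06% of that sum. With GSK-126 it equalled 4.11%, 4.99% and 3.63%, and replicates 2 and 3 stood in opposite orders for Ezh2 and the markers. Ezh1, at 33.5, 39.5 and 36.9 CPM with DMSO, had the reverse order. The astrocyte sum was also highest in replicate 1 of both groups, at 7090 CPM with DMSO and 7310 with GSK-126. The part of these cells in the Ezh1 to Ezh2 ratio was not tested.

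The response to GSK-126 was tested gene by gene across 16343 genes with edgeR's quasi-likelihood test and Benjamini-Hochberg adjustment. With treatment as the only term, 0 of the 10 PRC2 genes passed an adjusted p under 0.05, as did 0 (0%) of all genes tested. At an unadjusted p under 0.05 there was 1 of 10, against 6.0% of all genes, and DESeq2 called 0 of 10, against 0.361% of all genes. Same-numbered libraries deviated together, so a second fit, here called the block fit, had the number as a further term. In the block fit 1 of 10 was called lower and 0 higher, against 3.65% of all genes called, 1.42% lower and 2.23% higher. The same gene, Jarid2, was the only call of DESeq2 with the block, which called 4.12% of all genes. The groups overlapped in CPM for all 10 genes, while they did not overlap for 10.9% of all genes tested. The median log2 fold change of the 10 genes was -0.06 in both edgeR fits, beside -0.00 for all genes. With a single call among 10, the share says little about the group.

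**Figure D3:**
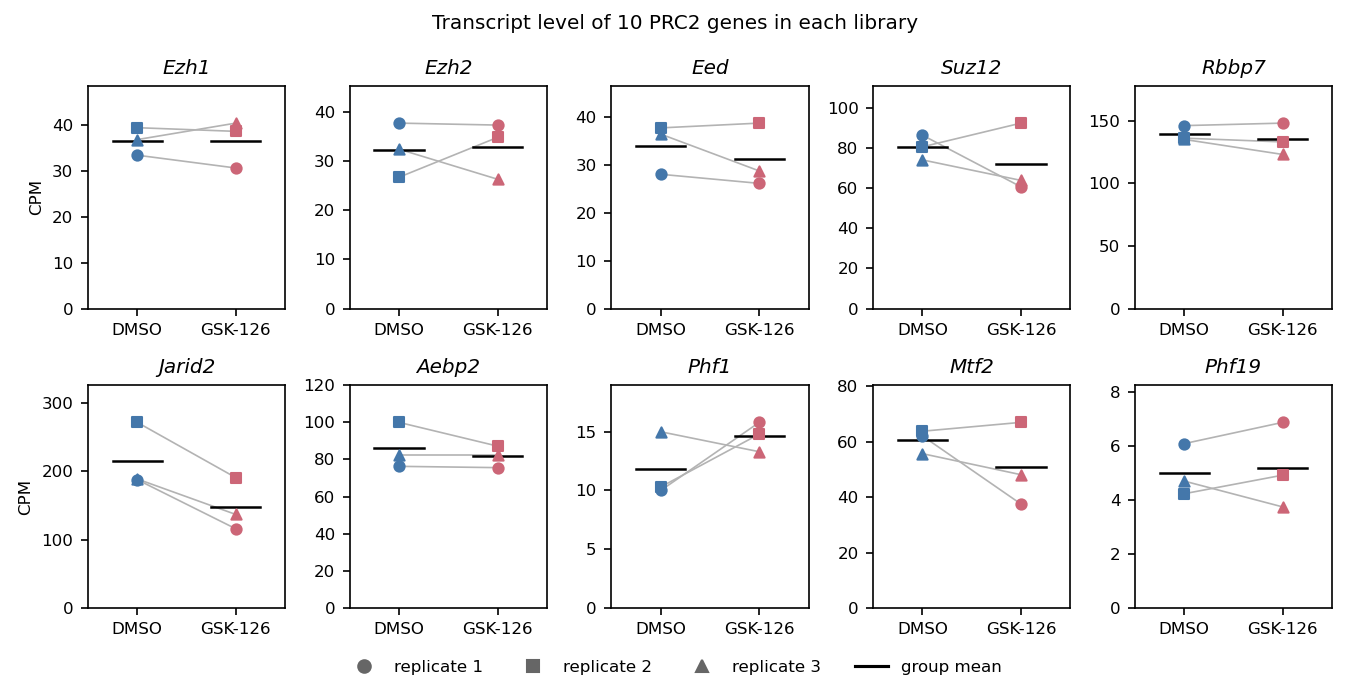
Level in CPM of each of the 10 PRC2 genes with DMSO (blue) and GSK-126 (red). Points are single libraries, grey lines join libraries of the same replicate number, black bars are group means and each vertical axis starts at 0. The groups overlap for every gene, and Jarid2 is the one gene whose 3 lines all go down.

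Jarid2 (ENSMUSG00000038518.15; GRCm38 chromosome 13, 44729474 to 44921643, plus strand) encodes the PRC2.2 subunit that helps bring the complex to its targets and stimulates the enzyme. Its level was 188, 272 and 189 CPM in DMSO replicates 1, 2 and 3, and 116, 191 and 137 CPM with GSK-126. Each GSK-126 library lay below its own partner, but GSK-126 replicate 2 lay just above DMSO replicates 1 and 3, so the groups overlap. Among all genes tested, 39.0% moved in a single direction in 3 of 3 pairs. The means were 216 ± 48.6 and 148 ± 39.1 CPM (SD, n = 3). The log2 fold change was -0.55 (SE 0.224, 95% interval -1.06 to -0.04; edgeR adjusted p = 0.824). With the block it fell by 0.56 on the log2 scale (SE 0.105, interval -0.79 to -0.33; edgeR adjusted p = 0.0162). The call needs the block and most of the libraries. In the block fit it was kept without replicate 1 (-0.48, edgeR adjusted p = 0.0133) and lost without replicate 2 (-0.57, 0.0817) or replicate 3 (-0.60, 0.0575).

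**Figure D4:**
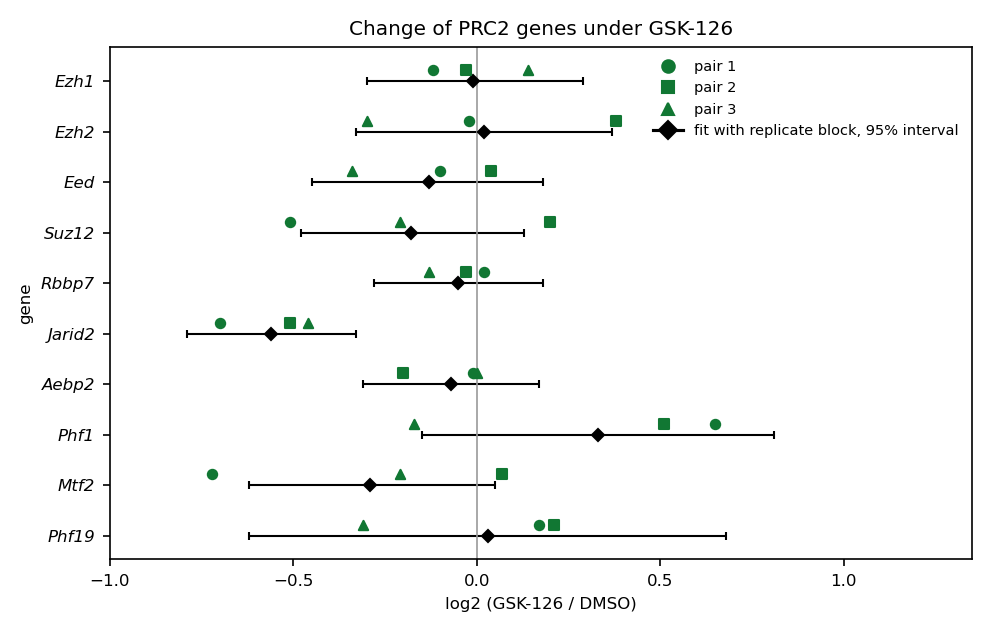
Log2 ratio of GSK-126 to DMSO for each PRC2 gene. Green points are the 3 pairs of libraries with the same number, black diamonds are the edgeR log2 fold changes with the replicate block, and bars are their 95% intervals. The interval of Jarid2, -0.79 to -0.33, is the only one that leaves out 0.

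The other PRC2.2 subunit, the zinc finger gene Aebp2 (chromosome 6, 140622663 to 140678472, plus strand), had 76.3, 100 and 82.5 CPM with DMSO and 75.6, 87.2 and 82.5 with GSK-126. These values nearly coincide in pairs 1 and 3. Its block log2 fold change was -0.07 (95% interval -0.31 to 0.17; edgeR adjusted p = 0.813). The Jarid2 to Aebp2 ratio per kb was therefore 2.50, 2.76 and 2.32 with DMSO and 1.55, 2.22 and 1.68 with GSK-126, values that do not overlap between groups. This ratio was formed after the Jarid2 values were seen and got no test.

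Several granule neuron markers were lower alongside Jarid2. With the block, 4 of 9 of these markers were called lower and 0 higher, where 1.42% of all genes were called lower: Gabra6 (log2 fold change -1.42, edgeR adjusted p = 0.00034), a receptor subunit of mature granule neurons, the transcription factor gene Neurod1 (-0.58, 0.0265), Rbfox3 (-0.59, 0.0180) and Cbln1 (-0.53, 0.0144). The list did not move as one, since Tubb3 (0.36, edgeR adjusted p = 0.167) was higher in 3 of 3 pairs and Pax6 stood at 0.04 (0.895). The summed markers were lower with GSK-126 within each pair, at 4860 and 3500 CPM in pair 1, 6570 and 5460 in pair 2, and 5300 and 4110 in pair 3. Jarid2 equalled 3.87%, 4.14% and 3.56% of that sum with DMSO and 3.30%, 3.50% and 3.33% with GSK-126. Fibroblast markers went the other way, with sums of 8780 to 9720 CPM under GSK-126 above all DMSO sums. With the block 1 of 5 was called higher, where 2.23% of all genes were called higher. Of 7 endothelial and mural markers 6 passed the filter, and 3 of these were called higher with the block. Their sums ran from 419 to 698 CPM with DMSO and from 787 to 988 with GSK-126. In the same fit 0 of 7 astrocyte, 0 of 21 proliferation and 0 of 5 tested granule neuron precursor markers were called. Among 7 GABAergic neuron markers 1 was called lower with the block, Slc32a1 (-0.58, edgeR adjusted p = 0.0283), and Gad1 was at -0.34 (0.139), both lower in 3 of 3 pairs. Their median was -0.31, beside -0.37 for the granule neuron markers. Of 8 oligodendrocyte lineage markers 1 was called higher, Cspg4 (0.89, edgeR adjusted p = 0.00846), as was 1 of 7 microglia markers, C1qb (0.73, 0.0459). Whether these marker changes reflect numbers of cells or RNA per cell cannot be told apart here. Their part in the Jarid2 change was not tested.

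**Figure D5:**
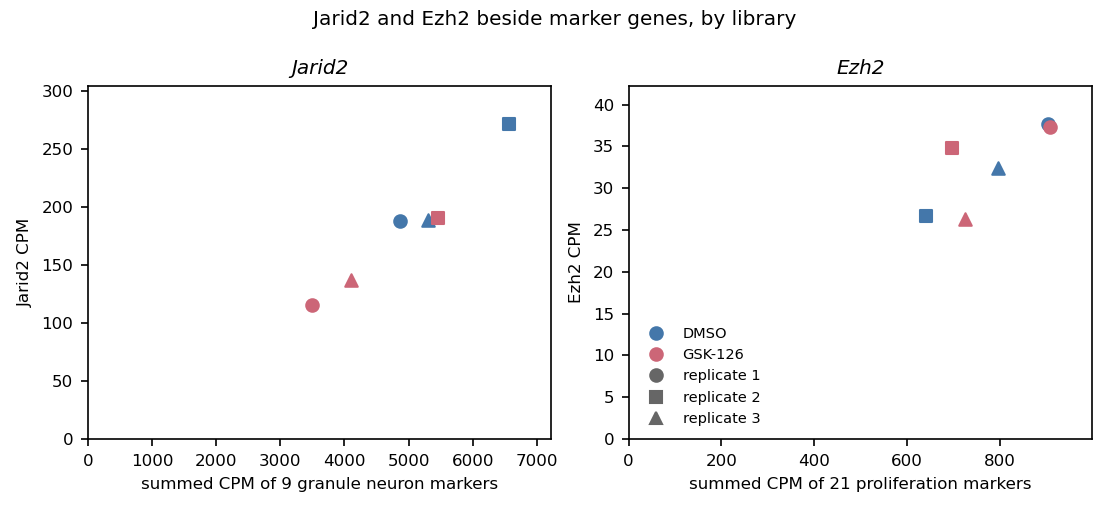
Level of Jarid2 (left) and Ezh2 (right) in CPM against the summed CPM of 9 granule neuron markers and of 21 proliferation markers. Each point is 1 library, blue for DMSO and red for GSK-126, with the shape giving the replicate number. Jarid2 is highest, at 272 CPM, in the library with the highest granule marker sum, and lowest, at 116 CPM, in the library with the lowest.

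The catalytic genes did not pass the test in any of the fits run. Ezh1 (ENSMUSG00000006920.14; chromosome 11, 101191115 to 101226463, minus strand) had 33.5, 39.5 and 36.9 CPM with DMSO and 30.7, 38.7 and 40.5 with GSK-126. Its block log2 fold change of -0.01 had a 95% interval from -0.30 to 0.29 (edgeR adjusted p = 0.991). Ezh2, the target of the inhibitor (ENSMUSG00000029687.16; chromosome 6, 47530139 to 47595341, minus strand), had 37.3, 34.8 and 26.3 CPM with GSK-126 beside the DMSO values above. It was flat in pair 1, higher in pair 2 and lower in pair 3. Its block log2 fold change was 0.02, with an interval from -0.33 to 0.37 (edgeR adjusted p = 0.967). The data thus leave room for changes of up to about these limits in either gene.

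Of the core genes, Eed (chromosome 7, 89954654 to 89980983, minus strand) had 28.1, 37.8 and 36.5 CPM with DMSO and 26.2, 38.8 and 28.8 with GSK-126 (block log2 fold change -0.13, 95% interval -0.45 to 0.18, edgeR adjusted p = 0.712). Suz12 (chromosome 11, 79993106 to 80034123, plus strand) had 86.3, 80.5 and 74.0 CPM with DMSO and 60.6, 92.3 and 63.8 with GSK-126. The GSK-126 values of Suz12 spread far more widely than the DMSO values and reach past them at both ends. Its block log2 fold change was -0.18 (interval -0.48 to 0.13, edgeR adjusted p = 0.588), and without replicate 1 it was -0.00. Rbbp7 (chromosome X, 162760402 to 162779092, plus strand) had 146, 136 and 135 CPM with DMSO and 148, 133 and 123 with GSK-126. Its 6 libraries lay close together, with a block log2 fold change of -0.05 (interval -0.28 to 0.18, edgeR adjusted p = 0.880). The processed pseudogene Gm6382 is 97.1% identical to Rbbp7 over 942 bases, so reads from that stretch may be split or lost.

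The PRC2.1 genes encode Polycomb-like proteins that tie the complex to CpG-rich DNA. Their block log2 fold changes ran from -0.29 to 0.33, and each 95% interval included 0. Mtf2 (chromosome 5, 108065674 to 108109004, plus strand) had 62.1, 63.8 and 55.7 CPM with DMSO and 37.5, 67.0 and 48.1 with GSK-126. Its block log2 fold change of -0.29 (95% interval -0.62 to 0.05, edgeR adjusted p = 0.383) rested largely on replicate 1, and was -0.07 without it. Phf1 (chromosome 17, 26933052 to 26937908, plus strand) had 10, 10.3 and 15.0 CPM with DMSO and 15.8, 14.8 and 13.3 with GSK-126. It was higher in pairs 1 and 2 and lower in pair 3 (block log2 fold change 0.33, interval -0.15 to 0.81, edgeR adjusted p = 0.495). Of its exon bases 39.3% overlap genes on the other strand, Cuta among them, and the strand setting of the counting is not given, so its counts are uncertain. Phf19 (chromosome 2, 34893757 to 34914026, minus strand) was the rarest, with 53, 34 and 40 counts in the DMSO libraries and 83, 41 and 33 under GSK-126. At 4.24 to 6.10 and 3.75 to 6.89 CPM, its block log2 fold change of 0.03 had the widest interval, -0.62 to 0.68 (edgeR adjusted p = 0.976). That interval is the range of changes the data leave room for, not a limit of detection.

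A single library, GSK-126 replicate 1, held the lowest value of 6 of the 10 genes (Ezh1, Eed, Suz12, Jarid2, Aebp2 and Mtf2) and the highest of 3 (Phf1, Phf19 and Rbbp7). It was the deepest library, with 12047837 counts, and had the lowest granule neuron marker sum, 3500 CPM. Its part in these levels was not tested. Without it, the treatment-only log2 fold change was -0.40 for Jarid2 (edgeR adjusted p = 0.999), -0.04 for Suz12 and -0.07 for Mtf2.

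Summed over the forms of the complex, the PRC2.1 genes had 15.0, 15.0 and 15.0 CPM per kb with DMSO and 12.5, 17.0 and 13.0 with GSK-126. The PRC2.2 genes had 27.1, 38.2 and 27.8 CPM per kb with DMSO and 19.6, 28.6 and 22.5 with GSK-126, lower in 3 of 3 pairs. Jarid2 makes up most of that sum. Its share of the summed level of all 10 genes was 15.2%, 20.7% and 15.7% with DMSO and 10.6%, 15.1% and 13.1% with GSK-126.

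The genes that act with or against PRC2 were taken as fixed lists of 38 genes: further PRC2 partners, H3K27 demethylases, subunits of PRC1 (which reads H3K27me3 and ubiquitinates histone H2A), the H2A deubiquitinase complex, H3K27 acetyltransferases and H3K36 methyltransferases. Of the 37 that passed the filter (AU022751 did not), 0 rose and 0 fell with edgeR with or without the block, and DESeq2 called 0 in both designs. At an unadjusted p under 0.05 there were 0 without and 4 with the block, or 4 of 37 against 16.7% of all genes. Cbx6, Phc2 and Kdm6a were among those 4. The block log2 fold changes were negative for 28 genes and positive for 9, where 8234 of all 16343 genes tested had negative ones. The median of the 37 was -0.10, beside -0.00 for all genes. By list, the negative values were 15 of 19 for PRC1, with a median of -0.10, 3 of 3 for the demethylases (-0.20), 4 of 4 for the H2A deubiquitinase complex (-0.15), 3 of 5 for the H3K36 methyltransferases (-0.07), 1 of 2 for the acetyltransferases (-0.01) and 2 of 4 for the further PRC2 partners (0.09). In CPM, 3 of the 37 genes had groups that do not overlap, against 10.9% of all genes.

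Among the CBX proteins, the readers of the mark in PRC1, Cbx6 had 207, 314 and 259 CPM with DMSO and 213, 196 and 199 with GSK-126 (block log2 fold change -0.34, edgeR adjusted p = 0.215). Cbx2, at 10.1 ± 0.354 and 8.33 ± 1.53 CPM (SD, n = 3), had groups that do not overlap and was not called (edgeR adjusted p = 0.588 in the block fit). Cbx7 and Cbx8 had block log2 fold changes of 0.04 and -0.11 (edgeR adjusted p = 0.978 and 0.874). Of the PRC1 core, the ubiquitin ligase gene Rnf2 stood at -0.10 (edgeR adjusted p = 0.799) and its partner Bmi1 at 0.26 (0.346), the latter higher in 3 of 3 pairs. In the block fit without replicate 1, which called 704 of all genes, Cbx6 (-0.53, edgeR adjusted p = 0.0122) and Phc2 (-0.43, 0.0440) were called lower. Neither was called without replicate 2 or replicate 3. Cbx6 was then at -0.16 (edgeR adjusted p = 0.708) and -0.32 (0.554), and the adjusted p of Phc2 reached 0.784.

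Of the genes tied most directly to the PRC2 level, Rbbp4 had a mean of 187 ± 7.61 CPM in the DMSO libraries and of 176 ± 6.25 CPM under GSK-126 (SD, n = 3). Its log2 fold change in the block fit was -0.08 (edgeR adjusted p = 0.758). The demethylase gene Kdm6a had 82.7, 74.9 and 65.9 CPM with DMSO and 58.4, 65.4 and 59.3 with GSK-126. Its groups barely part, at 65.9 and 65.4 CPM, and it was not called (edgeR adjusted p = 0.257 with the block). Kdm6b, at 131 ± 5.68 and 125 ± 3.64 CPM (SD, n = 3), varied little in either group (edgeR adjusted p = 0.815 with the block).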

How the data were processed

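Poly(A) RNA was sequenced in 3 DMSO and 3 GSK-126 cultures. Per the labels and the study's methods, the authors trimmed reads with Trimmomatic 0.38, aligned them to GRCm38 with STAR 2.7.2b and used HTSeq to count exon reads. The deposited values are whole-number counts, not normalized, in a table for each library. Left out were 5 rows of totals, among them reads over no exon (44.8% to 46.7%) and reads without a unique position (9.54% to 10.4%). Whether strand was used in counting is not given in the sources used here. All 55341 symbols matched the GENCODE M21 annotation of GRCm38, the source of lengths and positions; promoter sequences are from RefSeq (GRCm38.p6), with a window found for 10 of 10 genes.

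Counts were scaled by TMM, filtered (16343 genes kept) and tested with edgeR 4.0.16 in R 4.3.3 (quasi-likelihood, treatment only, threshold 0.05). The alternatives were the replicate number as a block, DESeq2 1.42.0 with and without it, its size factors in edgeR, no filter, and leaving out libraries. Intervals come from the SE and edgeR's total degrees of freedom, which add to the residual ones those borrowed across genes. Pair ratios use a prior count of 2. Replicates are cultures from pooled litters; deviations from the group means correlated at 0.35, 0.50 and 0.52 for libraries sharing a number in the labels and at -0.41 to -0.01 otherwise, so the numbers were taken to pair the samples. In a library, 3 counts equal 0.249 to 0.374 CPM. No libraries were duplicates (chi-square per degree of freedom at least 10.7). Near-identical copies were sought with blastn 2.17.0 (at least 95% over 150 bases). The scripts were tested on simulated data.

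The genes and lists were chosen with earlier results of these data known. The rule named the 10 genes, Rbbp4, Kdm6a, Kdm6b, Cbx2, Cbx6, Cbx7, Cbx8, Rnf2 and Bmi1 whatever their values, and any listed gene that was called; 1 further gene of the rule is not reported here; Phc2 and the markers named were chosen after their values were seen.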

Additional observations from a re-analysis of the deposited data

How the results depend on the processing

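The number of calls depended most on the replicate block. Across all genes, edgeR called 0 with treatment only, 597 with the block, 85 without a filter and 0 with any library left out; the block without 1 replicate number called 178 to 704 (359 without replicate 3). DESeq2 called 59, and 674 with the block. Of the 10 PRC2 genes, 1 was called with the block by edgeR, 1 by DESeq2 with the block and 0 to 1 with the block when a replicate number was left out. Of the 38 partners, 0 to 2 were called with the block when a number was left out. Jarid2 had a negative log2 fold change in 14 of 14 alternatives, from -0.78 (without GSK-126 replicate 2) to -0.34 (without DMSO replicate 2), and was called in 3; its lowest adjusted p was 0.00120, from DESeq2 with the block, and the highest was 1.00. Of 658 values of the 47 listed genes tested, 589 kept their direction and their side of the threshold, 5 passed it only in the alternative and 64, in 23 genes, turned direction; 0 of the 64 were called, and 59 came with a library or number left out. Leaving out 1 library without the block, the log2 fold changes that turned ran from -0.08 to 0.11 for Ezh1, -0.08 to 0.16 for Ezh2, -0.15 to 0.05 for Aebp2, -0.21 to 0.24 for Phf19, -0.12 to 0.02 for Rbbp7, -0.39 to 0.44 for Cbx7, -0.34 to 0.04 for Cbx8 and -0.26 to 0.03 for Rnf2. With the block and 1 number left out, they ran from -0.08 to 0.05 for Ezh1 (0.02 without replicate 2), -0.14 to 0.18 for Ezh2, -0.10 to 0.01 for Aebp2, -0.06 to 0.20 for Phf19 (-0.04 without replicate 2), -0.55 to 0.65 for Cbx7 (0.06 without replicate 3), -0.44 to 0.12 for Cbx8 (0.02 without replicate 3) and -0.30 to 0.02 for Rnf2 (0.02 without replicate 1, 0.00 without replicate 3). Ezh1 was also at 0.00 with DESeq2's size factors, 0.00 with DESeq2 and 0.01 without a filter, and Cbx7 at 0.04 with the block and 0.06 with DESeq2 and the block. The mean log2 ratio of Ezh1 to Ezh2 with DMSO was 0.04, -0.15 to 0.22 without 1 library, and -0.40 with the longest coding transcripts; that length changed the rank of 4 genes. The difference of the log2 ratio ranged from -0.26 to 0.19 without 1 library. Causes of these shifts were not tested. Among the 10 PRC2 genes, counts were fewest for Phf19, with at most 83.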
